A study of Mus musculus with 3 samples.

Results

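RNA levels of genes for potassium, sodium, chloride and calcium channels and their subunits were examined in mouse muscle from 3 control samples, here called muscle 1, 2 and 3. The genes were chosen by symbol: every gene whose symbol starts with Kcn, Scn, Clcn or Cacn and that has a probe set assigned to it alone, without Cacna1s, Cacnb1 and Cacng1, the core subunits of the calcium channel of the transverse tubule. This gave 102 genes of 12394 on the array, of which 62 were Kcn, 13 Scn, 7 Clcn and 20 Cacn genes. These samples, each hybridised to its own array, were of muscle of littermate controls 3 to 6 weeks old and served as the normal reference for tumours of Pax7-expressing satellite cells in a study of how tumours formed in vitro and in vivo relate to each other and to human sarcomas of soft tissue. The labels used here give neither strain, sex nor the muscle sampled. Their treatment text describes an injection of 4-hydroxytamoxifen into the hindlimb of mice that formed tumours and does not say whether the controls received it. Tumour arrays were not analysed here. Whether the samples came from separate animals is not stated, so the SDs and p-values below cover only the spread between these 3 arrays, and that spread may be technical.

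Skeletal muscle fibres carry an action potential along the surface membrane and into the transverse tubules. Voltage-gated sodium channels start it, delayed rectifier potassium channels end it, and a large resting chloride conductance through ClC-1 together with inward rectifier potassium channels holds the membrane near its resting potential. The calcium channel of the tubules senses the voltage change and opens the ryanodine receptor. Pore-forming subunits of these families work with auxiliary subunits that alter gating or trafficking, and many relatives are best known from nerve, heart, kidney or smooth muscle.

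All levels are log2 RMA values of the probe set whose mean over the muscles was highest, and means are given ± SD over the 3 muscles (n = 3). Probe sets bind with different strength, so a level was set against the background and against the same gene in the other muscles, never against another gene. The background level, the 95th percentile over 108 probe sets (77 genes typical of the eye, testis, liver, pancreas and other organs), was 5.94, 5.91 and 5.96 in muscles 1, 2 and 3. A gene above it is called detected. A gene below it may still be expressed, since whole tissue dilutes rare cells and a weak probe set can miss a transcript. By this rule 5 of the 77 background genes counted as detected in each muscle, the highest at a mean of 6.84. The tissue label was borne out by its defining genes: all 10 fibre markers, Acta1, Ckm and Myh4 among them, were detected in each muscle, with a median level of 13.38 to 13.40. The number of arrays limits the precision of every value.

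Most channel genes were below background in these muscles. Of the 102 genes, 23 were detected in all 3 muscles, or 22.5%, whereas 58.5% of all genes on the array were. Another 75 were detected in none, or 73.5%, against 37.2% of all genes. The remaining 4, Kcnk3, Kcnab3, Kcnmb4 and Cacna1g, were above background in muscle 2 alone. Among the 23 detected genes, 15 had a mean above that of every background gene, or 65.2%, against 82.5% of all detected genes on the array. The other 8 were Cacna1a, Kcna1, Kcnc1, Kcnh2, Kcnip3, Kcnma1, Kcnn1 and Kcnn4, and with the background set at the 99th percentile the same 8 were no longer detected in all 3 muscles. Of these, Kcnh2 and Kcnip3 stayed above that level in some muscles and the other 6 in none. By family, 4 of 7 chloride channel genes were detected in all 3 muscles, or 57.1%, near the 58.5% of all genes. The shares were lower for the others: 15 of 62 potassium (24.2%), 3 of 20 calcium (15%) and 1 of 13 sodium genes (7.69%). These counts depend on the choice by symbol, which left out Cacna1s, Cacnb1 and Cacng1 and took in Scnm1, whose product is not a channel.

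**Figure D1:**
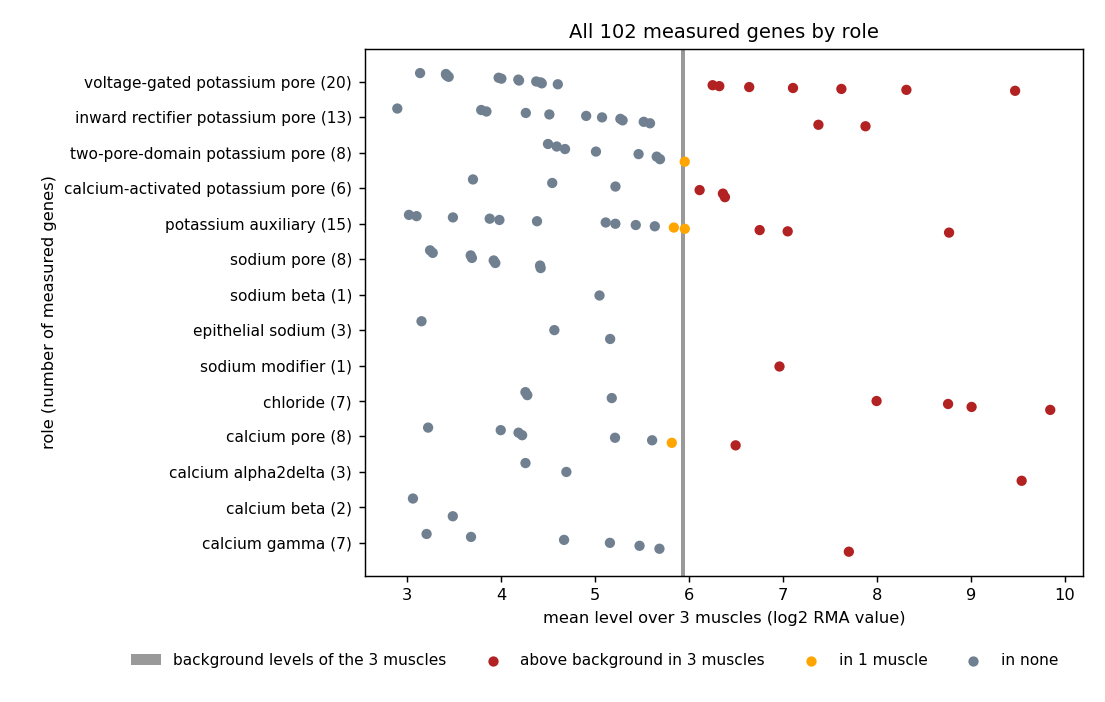
Mean level over the 3 muscles (horizontal axis, log2 RMA value) of each of the 102 genes, one point per gene, in rows by the role of its product, with the number of measured genes in brackets. The grey band spans the background levels, 5.91 to 5.96. The 23 red points lie above it in every muscle, the 4 orange points in muscle 2 alone, and the 75 grey points in none. Levels of different genes on this axis are not comparable as amounts of RNA.

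Among chloride channel genes, the muscle channel itself and 3 exchangers of intracellular membranes were detected. Clcn1, which encodes ClC-1, the channel lost in hereditary myotonia, had values of 8.24, 7.89 and 7.86 in muscles 1, 2 and 3 and an SD of 0.21. All 3 values lie well above background, and muscle 1 was the highest by 0.36 over the mean of the others. The endosomal chloride/proton exchangers Clcn3, Clcn4 and Clcn5 had means of 8.76 ± 0.04, 9.01 ± 0.02 and 9.85 ± 0.22. Clcn4 varied little between muscles by both of its probe sets, while for Clcn3 the spread depended on the probe set: the next ones, also detected in every muscle, gave 8.64 ± 0.21 and 7.62 ± 0.19. Clcn5 had values of 9.90, 9.60 and 10.04, lowest in muscle 2. Its level comes from a probe set marked as matching several transcripts, and the next probe set gave 7.17 ± 0.10. That next probe set, also detected in every muscle, was at 7.24, 7.21 and 7.06, lowest in muscle 3. The order of the muscles for Clcn5 thus depended on the probe set. Clcn2, a widely expressed plasma membrane channel, and Clcn6 were below background in every muscle, with means of 4.26 and 4.28. Clcn7, the lysosomal exchanger, was at 5.12, 5.04 and 5.37 in muscles 1, 2 and 3, also below.

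Voltage-gated potassium channel genes were detected for 7 of 20 measured pore subunits. Kcnc4 (Kv3.4), a fast-inactivating channel found in muscle, was at 9.41, 9.48 and 9.53 in muscles 1, 2 and 3. Kcna7 (Kv1.7), a channel of heart and skeletal muscle, was at 8.35, 8.24 and 8.35. By these probe sets both differed by at most 0.11 between muscles. The other probe set of Kcnc4, also detected in every muscle, was at 7.72, 7.14 and 7.21, a range of 0.58 with muscle 1 the highest. Kcna5 (Kv1.5), a delayed rectifier of heart and smooth muscle as well, was at 7.61, 7.62 and 7.64, with an SD of 0.01 that was the lowest among the 23 detected genes. Kcnh3, an ether-a-go-go relative best known from brain, was at 7.21, 6.86 and 7.25, and Kcnh2, which encodes the ERG channel of cardiac repolarization, at 6.28, 6.72 and 6.92. Kcnh2 was lowest in muscle 1. Kcna1 and Kcnc1, both typical of fast-firing neurons, were close to background, at 6.25 ± 0.17 and 6.32 ± 0.09. The 13 undetected genes had means from 3.14 for Kcna3, a lymphocyte channel, to 4.60 for Kcna4. They include all 3 Kcnd genes, which carry transient currents in heart and brain, as well as Kcnq1 and Kcnq5.

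Inward rectifier genes were detected for 2 of 13, and Kcnj2 and Kcnj11, well known from muscle fibres, were not among them. Kcnj12 (Kir2.2), a strong inward rectifier, had values of 6.87, 7.04 and 8.22 in muscles 1, 2 and 3. Kcnj8 (Kir6.1), the pore of the ATP-sensitive channel of vessels, was at 7.978, 7.996 and 7.662. The former was highest and the latter lowest in muscle 3. Kcnj2 (Kir2.1), mutated in Andersen-Tawil syndrome with its periodic paralysis, was at 2.83, 2.89 and 2.96, far below background. Kcnj11 (Kir6.2), the pore of the ATP-sensitive channel of muscle fibres, was at 4.84, 5.03 and 4.84. Each of these genes has 1 probe set on the array, so a weak probe set and a low transcript cannot be told apart. The sulfonylurea receptors that complete ATP-sensitive channels were split: Abcc9 was detected, at 7.73, 7.78 and 8.31, and Abcc8, the subunit of pancreatic beta cells, was not, at 4.65 ± 0.35. The other undetected inward rectifiers, among them the kidney channel Kcnj1, the glial channel Kcnj10 and the G protein-gated Kcnj3, Kcnj5, Kcnj6 and Kcnj9, had means from 3.79 for Kcnj14 to 5.58 for Kcnj4.

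Of 6 calcium-activated potassium channel genes 3 lay just above background and 3 were undetected, and two-pore-domain channel genes lay at or below it. Kcnma1, the large-conductance channel of smooth muscle and nerve, was at 6.01, 6.12 and 6.20, and its other probe set ran the opposite way, at 6.50, 5.82 and 5.30. The order of the muscles thus depended on the probe set. Kcnn1 (SK1) and Kcnn4 (the intermediate-conductance channel of blood cells) had means of 6.38 ± 0.15 and 6.36 ± 0.07. Kcnn1 was at 6.42, 6.51 and 6.21 by the probe set taken as its level and at 5.81, 6.63 and 6.60 by the other, so here too the order of the muscles depended on the probe set. Kcnn3 (SK3), which appears in muscle after denervation, was at 3.77, 3.74 and 3.59, below background throughout. Kcnn2 (SK2) and Kcnu1, the sperm relative of Kcnma1, were undetected as well, at 5.22 ± 0.17 and 4.54 ± 0.15. None of the 8 two-pore-domain genes, whose channels carry background potassium current, was detected in all muscles. Kcnk3 (TASK-1) was at 5.61, 6.32 and 5.94, above background in muscle 2, and its other 2 probe sets had means of 5.02 and 3.67. The other 7 had means from 4.50 for Kcnk4 to 5.69 for Kcnk7.

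Of 15 auxiliary subunits of potassium channels, 3 were detected in all 3 muscles. Kcne1l, an X-linked relative of the Kcne1 subunit, was at 8.69, 8.79 and 8.83, and Kcne4, which inhibits several voltage-gated channels, at 6.96, 7.11 and 7.09. Their ranges were at most 0.15. Kcnip3, a calcium-binding protein that binds Kv4 channels, was at 6.80, 6.95 and 6.50, with muscle 3 the lowest. Kcne3, a partner described for Kcnc4 in muscle, was at 3.09, 3.06 and 3.15 and thus undetected. Kcnmb1, the beta subunit of the large-conductance channel in smooth muscle, was at 4.33, 3.62 and 3.68. Kcnab3 and Kcnmb4, at means of 5.95 ± 0.14 and 5.84 ± 0.08, crossed the background level in muscle 2 alone, and another probe set of Kcnab3 was at 4.97. The undetected subunits ranged from 3.02 for Kcne1 to 5.64 for Kcnab1.

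Sodium channel genes were almost entirely undetected, but the main sodium channel of muscle, Scn4a, was not analysed here. All 8 measured pore genes were below background, with means from 3.24 for Scn9a to 4.42 for Scn10a. Most of these are channels of central or sensory neurons, such as Scn1a, Scn2a, Scn8a, Scn9a and Scn10a. Scn8a had the widest range of them, 0.72, wholly below background. The beta subunit Scn3b was at 5.04 ± 0.23. The epithelial sodium channel genes Scnn1a, Scnn1b and Scnn1g, which act in kidney and lung, were at 5.16, 4.57 and 3.15. The one detected Scn gene, Scnm1, encodes a splicing factor named for its effect on a sodium channel transcript, not a channel. It was at 7.0045, 6.8439 and 7.0376. Of the 15 measured genes on the list of channel genes with a known role in muscle, 7 were detected in all muscles and 8 in none.

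The calcium channel genes that were detected firmly were auxiliary subunits of muscle. Cacna2d1, the alpha2delta subunit of the tubular calcium channel, had values of 9.80, 9.77 and 9.06 in muscles 1, 2 and 3. Cacng6, a gamma subunit related to Cacng1, was at 7.82, 7.69 and 7.60. Muscle 3 was the lowest for both. Among 8 pore genes, Cacna1a, the P/Q-type channel of motor nerve endings, was at 6.50 ± 0.05, with a further probe set at 4.70. Cacna1g, a T-type channel, was at 5.80, 6.03 and 5.62. The cardiac L-type pore Cacna1c was at 4.25, 4.07 and 4.35, and the T-type pore Cacna1h, present in developing muscle, at 3.91, 4.25 and 3.83, all below background. The beta subunits Cacnb2 and Cacnb4, best known from heart and brain, were undetected at 3.48 and 3.06. The other 6 gamma genes, most of which encode partners of AMPA receptors in brain, had means from 3.21 for Cacng3 to 5.68 for Cacng4. The subunits that form the tubular channel, outside the chosen set, were all detected with small spread: Cacna1s at 10.65 ± 0.03, Cacnb1 at 10.23 ± 0.05 and Cacng1 at 10.35 ± 0.03.

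**Figure D2:**
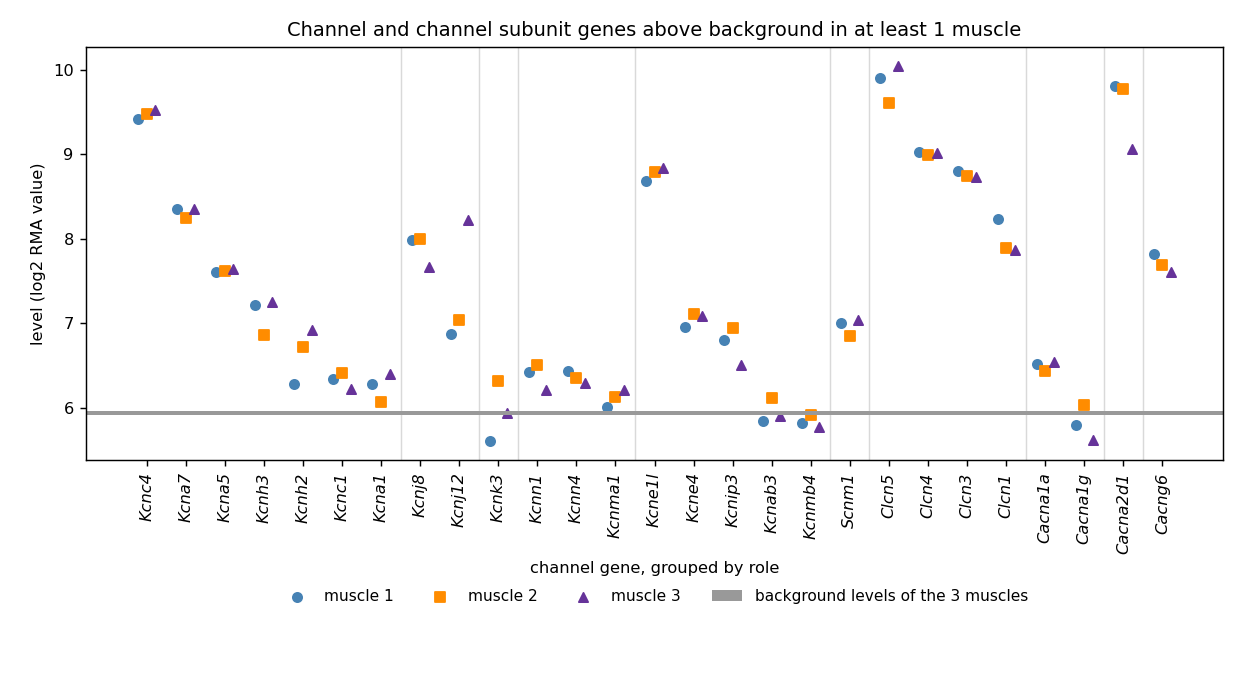
Level (vertical axis, log2 RMA value) in muscle 1 (blue circles), muscle 2 (orange squares) and muscle 3 (purple triangles) of the 27 genes above background in at least 1 muscle, grouped by role along the horizontal axis. The grey band spans the background levels of the 3 muscles. Kcnj12 is the gene whose 3 points spread most, with muscle 3 at 8.22, and Cacna2d1 shows muscle 3 below the others at 9.06.

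Partners and pumps that serve these channels were mostly detected. Of 28 listed genes, 21 were measured, 15 of them detected in all 3 muscles and 5 in none. Over all genes on the array, 58.5% were detected in all 3 muscles and 37.2% in none. The 15 include Cacna1s, Cacnb1 and Cacng1, the channel subunits given above. The pump subunits Atp1b1 and Atp1b2 and their regulator Fxyd1 were at 10.55 ± 0.07, 11.46 ± 0.05 and 12.20 ± 0.04. The ryanodine receptor Ryr1 was at 12.47 ± 0.01, the anchoring protein Ank3 at 10.84 ± 0.02 and Fgf13, which binds sodium channels, at 9.53 ± 0.02. Fgf12 and Fgf14 on the same list were undetected, at means of 4.02 and 2.95. The Kv4 partner Dpp6 was undetected, at 5.09 ± 0.12, as were the Kv4 pores themselves. Bsnd, the partner of kidney chloride channels, crossed background in 2 muscles, at 5.99, 5.75 and 6.05.

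Other cell types in the tissue contribute RNA, and fewer cells of a type cannot be told apart from less RNA per cell. None of the 9 measured neuronal markers was detected, Snap25, Nefl and Syt1 included, and their median level ran from 3.55 to 3.80 over the muscles. Kcna1, Kcnc1, Kcnh3 and Cacna1a, channels typical of neurons, were above background. Of these, Kcna1, Kcnc1 and Cacna1a had means under that of the highest background gene, 6.84. Other channels of neurons, such as Scn1a, Scn2a, Scn8a, Kcna2 and Cacna1b, were below background in every muscle, as the markers were. Of 10 smooth muscle and pericyte markers 9 were detected, Acta2 at 11.24 ± 0.02 and Rgs5 at 11.20 ± 0.02, and of 10 endothelial markers also 9, which bears on the vascular channel Kcnj8. The smooth muscle median was 8.71 in each muscle, and the endothelial median ran from 7.07 to 7.27. Leukocyte markers, relevant to Kcnn4, were detected for 7 of 10, with medians from 7.05 to 7.35, while Cd68, Cd14 and Itgam were below background. Of 6 measured Schwann cell genes 3 were detected, with medians from 6.31 to 6.46 and S100b and Mag below background. Heart markers were detected for 3 of 8, with medians from 4.44 to 4.63, and Myh6, Nppa, Myl7, Tnni3 and Nppb were below background. Erythroid and epithelial markers were detected for 1 of 4 and 1 of 6, with medians from 4.95 to 5.09 and from 5.63 to 5.81. Slc4a1, Epb42, Gata1, Krt8, Krt18 and Krt14 were below background. The part of these cells in the channel levels was not tested.

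The level of a gene depended on which of its probe sets was read. The 102 genes had 150 probe sets, with 66 genes on a single one. Genes with several probe sets were detected in all muscles in 30.6% of cases and genes with 1 in 18.2%, which the choice of the highest probe set favours. Of the 23 detected genes 11 had several probe sets, and 6 of these had a further probe set that never rose above background: Cacna1a, Cacna2d1, Clcn3, Clcn5, Kcnip3 and Kcnn4. For Cacna2d1 this further probe set had a mean of 4.71, and for Clcn5 of 4.24. For Clcn4 both probe sets were detected with an SD of 0.02, at 9.01 and 8.51. Kcnc4 and Cacng6 were detected by both of theirs, the lower at 7.36 ± 0.32 and 6.37 ± 0.28. The higher one of Kcnc4 is marked as matching several transcripts.

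**Figure D3:**
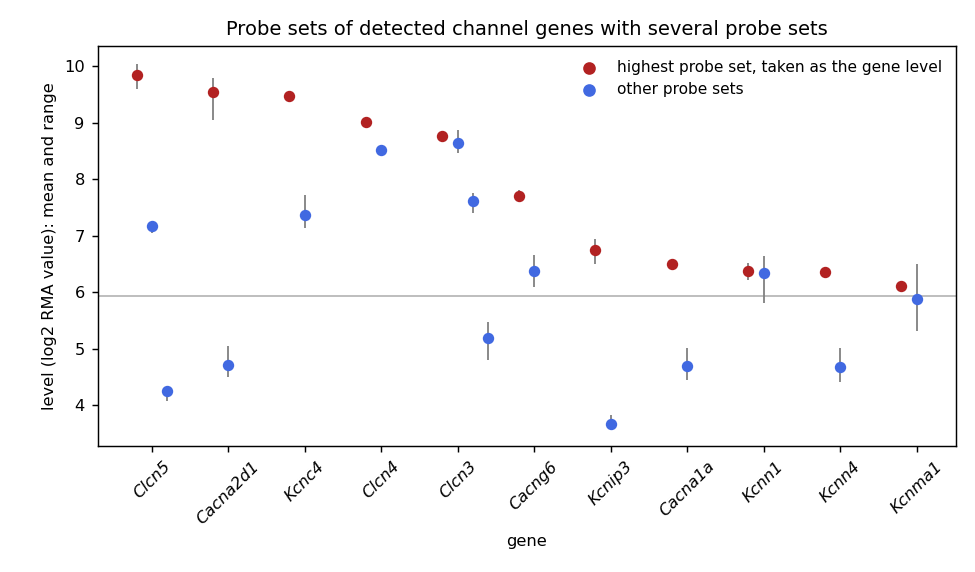
Mean level of each probe set (vertical axis, log2 RMA value), with a line from the lowest to the highest muscle, for the 11 detected genes that have several probe sets. Red points are the probe sets taken as the gene level, blue points the others, and the grey line marks the background levels. Blue points fall below the line for Cacna1a, Cacna2d1, Clcn3, Clcn5, Kcnip3 and Kcnn4, and for Kcnma1 the mean of the blue point, 5.87, lies just under it.

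Sequence upstream of the genes was read for the 250 bases before each transcription start in RefSeq, build GRCm38.p6. Windows were found for 82 of the 102 genes, 113 windows in all, and several windows of a gene are not independent. Below are 4 of them: those of Clcn1 and Kcna7, detected channels of the fibre, and those of Kcnj12 and Cacna2d1, the genes that varied most between muscles. Each runs 5′ to 3′ on the plus strand, with matches to the E-box CANNTG, the core bound by myogenic bHLH factors, in capitals. Their positions are chr6:42286435-42286684 for Clcn1, chr7:45405710-45405959 for Kcna7, chr11:61065554-61065803 for Kcnj12 and chr5:15934441-15934690 for Cacna2d1.
Clcn1: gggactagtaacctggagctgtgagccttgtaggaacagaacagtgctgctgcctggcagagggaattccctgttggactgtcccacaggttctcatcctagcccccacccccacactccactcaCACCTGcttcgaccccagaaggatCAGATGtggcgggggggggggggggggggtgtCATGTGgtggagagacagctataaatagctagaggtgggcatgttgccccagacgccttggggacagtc
Kcna7: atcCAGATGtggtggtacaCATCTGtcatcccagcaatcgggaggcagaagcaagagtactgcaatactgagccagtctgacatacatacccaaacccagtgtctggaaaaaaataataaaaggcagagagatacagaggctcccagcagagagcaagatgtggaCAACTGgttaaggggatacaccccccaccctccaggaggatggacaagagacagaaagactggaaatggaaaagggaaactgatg
Kcnj12: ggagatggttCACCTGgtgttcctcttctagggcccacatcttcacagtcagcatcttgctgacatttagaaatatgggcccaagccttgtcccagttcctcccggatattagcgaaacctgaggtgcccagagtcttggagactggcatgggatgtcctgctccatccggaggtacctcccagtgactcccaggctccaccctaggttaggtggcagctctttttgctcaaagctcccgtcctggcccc
Cacna2d1: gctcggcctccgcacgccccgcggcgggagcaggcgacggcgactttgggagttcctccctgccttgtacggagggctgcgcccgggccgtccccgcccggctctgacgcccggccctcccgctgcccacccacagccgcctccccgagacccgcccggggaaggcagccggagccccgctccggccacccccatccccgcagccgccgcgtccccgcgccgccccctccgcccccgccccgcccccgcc

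The window of Clcn1 held 3 E-boxes, 1 match to TATAAA and 1 match to the MEF2 motif, the last 2 overlapping. That of Kcna7 held 3 E-boxes and that of Kcnj12 held 1, with neither of the other motifs. The window of Cacna2d1 held none of them and was 82.4% G or C, against a median of 52.4% over all 32851 windows of the same length. Both strands were searched, CANNTG reads alike on both, and CAGCTG is one form of it. E-boxes were present in 18 of 25 windows of detected genes (72%), 59 of 87 windows of undetected genes (67.8%) and 66.2% of all windows. CAGCTG was present in 6 of 25 (24%), 20 of 87 (23.0%) and 13.0% of all. The MEF2 motif occurred in 2 of 25 windows (8%), 1 of 87 (1.15%) and 2.92% of all, and TATAAA in 2 of 25 (8%), 3 of 87 (3.45%) and 12.4%. The shares of detected and undetected genes thus lay close together for E-boxes, and the counts for the other motifs are small. A match describes the letters and is not a bound site.

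The 3 muscles differed little in most channel genes. Over the 23 detected genes the median SD was 0.104, a factor of 1.07, with a highest SD of 0.74 for Kcnj12. The same median over all detected genes was 0.0781. The median level of these 2 sets was 7.38 and 8.07. A range of at least 1 on the log2 scale, a 2-fold difference, was found for 1 of the 27 genes detected in at least 1 muscle, Kcnj12, and for 0.373% of all such genes. In limma's test of variance against genes of like level, adjusted by Benjamini-Hochberg over 7785 genes, 0 of the 27 passed 0.05, and 0.0899% of all genes did. At an unadjusted p under 0.05 there were 5 of 27, or 18.5%, against 5.11% of all genes: Cacna2d1, Kcnj12, Clcn5, Kcnh2 and Clcn1.

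The 2 genes nearest to the limit departed in muscle 3, in opposite directions. Kcnj12 in muscle 3 lay 1.27 above the mean of muscles 1 and 2, a range of 2.55-fold, and limma's adjusted p was 0.0591. Cacna2d1 in muscle 3 lay below the others by a departure of -0.73, a range of 1.67-fold, with limma's adjusted p at 0.0576. Muscles 1 and 2 were alike in both genes, at 6.87 and 7.04 for Kcnj12 and at 9.80 and 9.77 for Cacna2d1. After quantile normalization the 2 genes passed, with limma's adjusted p at 0.0216 for Kcnj12 and 0.0231 for Cacna2d1. They also passed without probe sets that match several transcripts, each at 0.0379. Calls over all genes rose as well, from 7 of 7785 to 16 of 7782 after quantile normalization and 14 of 7485 without those probe sets. Over the alternatives that keep muscle 3 the adjusted p of limma ran from 0.0216 to 0.929 for Kcnj12 and from 0.0231 to 0.982 for Cacna2d1. Without muscle 3, 0 genes had a range of at least 1. Kcnj12 has no other probe set. The other probe set of Cacna2d1 was below background in every muscle, so no order of the muscles was read from it.

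**Figure D4:**
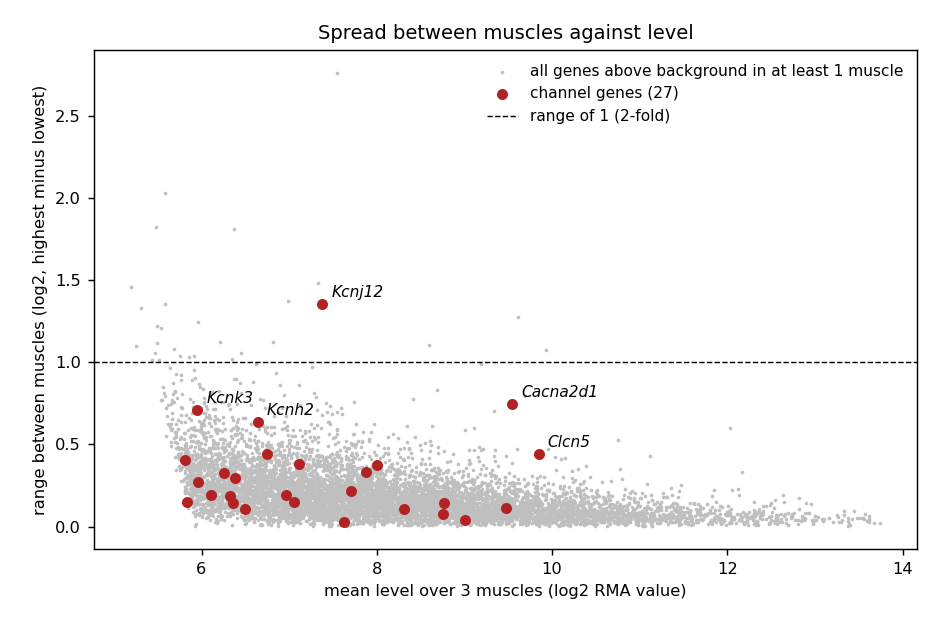
Range between muscles (vertical axis, highest minus lowest muscle, log2) against mean level (horizontal axis, log2 RMA value) for all 7785 genes above background in at least 1 muscle (grey) and the 27 channel genes among them (red). The dashed line marks a range of 1, a 2-fold difference. Kcnj12, at 1.35, is the only red point above it, and Cacna2d1, at 0.74, lies above most genes of its level.

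The next widest ranges were smaller. Kcnk3 spanned 0.71 with muscle 2 the highest, Kcnh2 0.63 with muscle 1 the lowest, and Kcnip3 and Clcn5 0.44 each. Cacna1g spanned 0.41, Kcnh3 0.38, Clcn1 0.37, and Kcnj8, Kcna1 and Kcnn1 between 0.33 and 0.30. Limma's adjusted p was 0.616 for Clcn5 and at least 0.950 for each of the others. None of these genes passed the test.

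Muscle 3 was the highest muscle for some detected channel genes and the lowest for others. Over the 23 genes detected in all 3 muscles it was the highest for 12, or 52.2%, against 24.1% of all such genes, and the lowest for 9, or 39.1%, against 47.3%. After quantile normalization it was the highest for 14 of 23, or 60.9%, against 33.6%, and the lowest for 7, or 30.4%, against 35.9%. The median departure of the 23 genes in muscle 3 was 0.056, against -0.036 for all genes detected in all muscles. The 4 genes above background in muscle 2 alone were left out of these counts, since that choice fixes which muscle is highest. The counts use the highest probe set of each gene and take any difference, however small. Among the 12 genes highest in muscle 3, Clcn5, Kcnc4 and Kcnma1 had another probe set above background in which muscle 3 was not the highest. Kcna7 was nearly tied, at 8.347 in muscle 1 and 8.351 in muscle 3. Muscle 3 also stood apart in some technical readings. The nuclear RNA Malat1 was at 6.74, 6.56 and 9.33 in muscles 1, 2 and 3. The 18S ribosomal RNA rose stepwise from muscle 1 to muscle 3, at 10.96, 11.23 and 11.69 near its 5′ end. Its middle probe set read 10.52, 10.80 and 11.04, and its 3′ probe set 10.34, 10.50 and 10.77. For dap and thr, bacterial RNAs of the kind added as labelling controls, the 3′ minus 5′ difference was 3.85, 3.60 and 2.63, and 3.81, 3.66 and 2.66. The lys and phe controls did not set muscle 3 apart in the same way, at 1.46, 1.22 and 1.24, and 0.670, 0.547 and 0.804. For Gapdh the difference was 0.331, 0.427 and 0.373, and for Actb 0.756, 0.765 and 0.607. The part of these differences in the values of Kcnj12 and Cacna2d1 was not tested.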

How the data were processed

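Per the labels' protocols, Trizol was used to isolate total RNA of the 3 muscle samples, of which 500 ng entered labelling with biotin for a 3' expression array. The deposited table holds log2 values made by the authors with RMA, which is the tool in the submitters' processing notes and subtracts background, quantile normalizes and combines the probes of each probe set. The sources used here give neither its version nor the set of arrays normalized together. Quantile normalization hides a change shared by most genes. Of 22690 probe sets, 20393 had 1 gene in GEO's platform annotation, 691 several and 1606 none. The symbols of all 102 channel genes matched a RefSeq table (GRCm38.p6) through the Entrez number. The members and gene lists were chosen with earlier results of these data known.

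With a single group, no contrast was possible. For every gene detected in at least 1 muscle, limma 3.58.1 in R 4.3.3 compared its variance over the muscles (2 df) with a robust prior that follows the level. The upper tail of F gave the p-value, adjusted by Benjamini-Hochberg with a limit of 0.05. The script was tested on simulated data, where it called 62.2% of genes moved by 1 log2 unit in muscle 3. It called 100% of those moved by 2. With no gene moved, it still called 1 gene per run on average. Values in each muscle are printed for listed genes with a role in muscle, for the 12 widest ranges, and for further genes chosen after their values were seen. Alternatives were quantile normalization, median centring, the mean over probe sets, omission of probe sets matching several transcripts, a 99th percentile background, no filter, other limma settings, a 1.5-fold range and leaving out each muscle. Python 3.11.15, numpy 2.4.6, pandas 2.3.3 and matplotlib 3.10.9 were used otherwise.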

Additional observations from a re-analysis of the deposited data

How the results depend on the processing

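The number of channel genes detected in all 3 muscles, 23, became 15 with the 99th percentile background and 19 with probe sets averaged, and all of these were among the 23. The 0 channel genes past limma's variance test became 2, Kcnj12 and Cacna2d1, after quantile normalization and without probe sets matching several transcripts. Calls over all genes rose too, from 7 of 7785 to 16 of 7782 and 14 of 7485. With 1 muscle omitted, between 0 and 1 channel genes passed. Without muscle 2, Kcnj12 alone of them passed (limma's adjusted p = 0.0328), with 10 of 7683 genes called in all. The number of channel genes past the test stayed at 0 with no trend, a prior that was not robust, no filter, median centring, averaged probe sets and the 99th percentile background. The 1 gene with a range of at least 1 became 4 when a 1.5-fold range sufficed, and was between 0 and 1 with one muscle omitted, 0 without muscle 3. The share of all genes at the 1.5-fold limit was not computed, so the 4 cannot be set against it. The median departure in muscle 3 over the 27 genes detected in at least 1 muscle was -0.0012. It changed sign under several alternatives and ran from -0.047 to 0.056. Some alternatives changed the set of genes as well. The highest value came with the 99th percentile background, where 85 of the 102 genes were detected in none, and no filter took in all 102. No paired analysis was possible because the labels give a single group. Without detection calls, signal over background limits what can be said of the 75 undetected genes.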
